A study of Sorghum bicolor with 34 samples.

Results

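The transcripts described here belong to 4 sorghum genes annotated as carriers of phosphate or of phosphorylated sugars, and 5 of the 47110 transcript IDs in the RNA-seq files carry them. They were chosen by transcript ID, with earlier results of these data known. EER88333 (gene SORBI_3010G133300) is annotated as a phosphate transporter and was matched by the study to Arabidopsis AT1G20860 (PHT1;8). EES13381 (SORBI_3007G045500), OQU82103 and OQU82104 (both SORBI_3006G173000) and KXG31062 (SORBI_3004G290900) are annotated as sugar phosphate transporters and were matched to the Arabidopsis glycerol-3-phosphate permeases AT1G30560 (G3Pp3) and AT3G47420 (G3Pp1).

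Plants take up phosphorus as inorganic phosphate, and carriers of the PHT1 family bring it across the plasma membrane together with protons. Glycerol-3-phosphate permeases are membrane carriers of the major facilitator superfamily, related to the bacterial carrier that exchanges glycerol-3-phosphate for phosphate. In Arabidopsis, G3Pp1 is known as a gene induced by phosphate starvation. Starved plants also break down membrane phospholipids, which have a glycerol-3-phosphate backbone, and put galactolipids and sulfolipids in their place.

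The RNA came from roots of BTx623, the sorghum line of the reference genome. Seedlings were grown in hydroponic solution with sufficient phosphorus (SP, 45 μM phosphate) or low phosphorus (LP, 2.5 μM phosphate) and were collected at day 10, with 10 plants pooled per replicate. Sampling covered 3 regions. The seminal apex was the tip of the primary root (0 to 2 cm, labelled as root apex), the elongation zone lay behind it (2 to 4 cm, labelled as intermediate root), and the lateral apex was the tip of lateral roots (0 to 2 cm). There are 2 libraries per phosphorus level for the seminal apex and the elongation zone, and 1 per level for the lateral apex, so that fold changes of the lateral apex have no replicate check and their p-values assume the spread of the other regions. The regions were cut from the same plants, so that the 5 libraries of a phosphorus level stand for about 2 pools of plants. Averages over regions and tests within regions treat them as independent.

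Total estimated counts ranged from 10114584 to 19067049 per library. Elongation zone LP replicate 2 and the lateral SP library stood apart: 165 and 340 transcripts were at 0 there while reaching at least 1 CPM in each of the other 9 libraries, against 2 to 21 such transcripts in the other libraries. These libraries, elongation zone SP replicate 2 and the lateral LP library also had short estimated fragments (166.7 to 168.8 bases, against 185.4 to 189.8 bases in the other 6). Seminal apex LP replicate 2 is named root apex in its title and whole root in its tissue label. The spread between these libraries may be partly technical, and in pieces of whole root a change in the number of expressing cells and a change in RNA per cell cannot be told apart.

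Levels are given as CPM (counts scaled to library size, TMM-normalized) for comparison between libraries, and as TPM, which corrects for transcript length, for comparison between genes. The test was the quasi-likelihood test of edgeR over all 10 libraries, and a transcript was called at an adjusted p under 0.05 over the 33039 transcripts tested (70.1%). Of the 5 transporter transcripts, 4 passed the expression filter and KXG31062 did not.

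**Figure D1:**
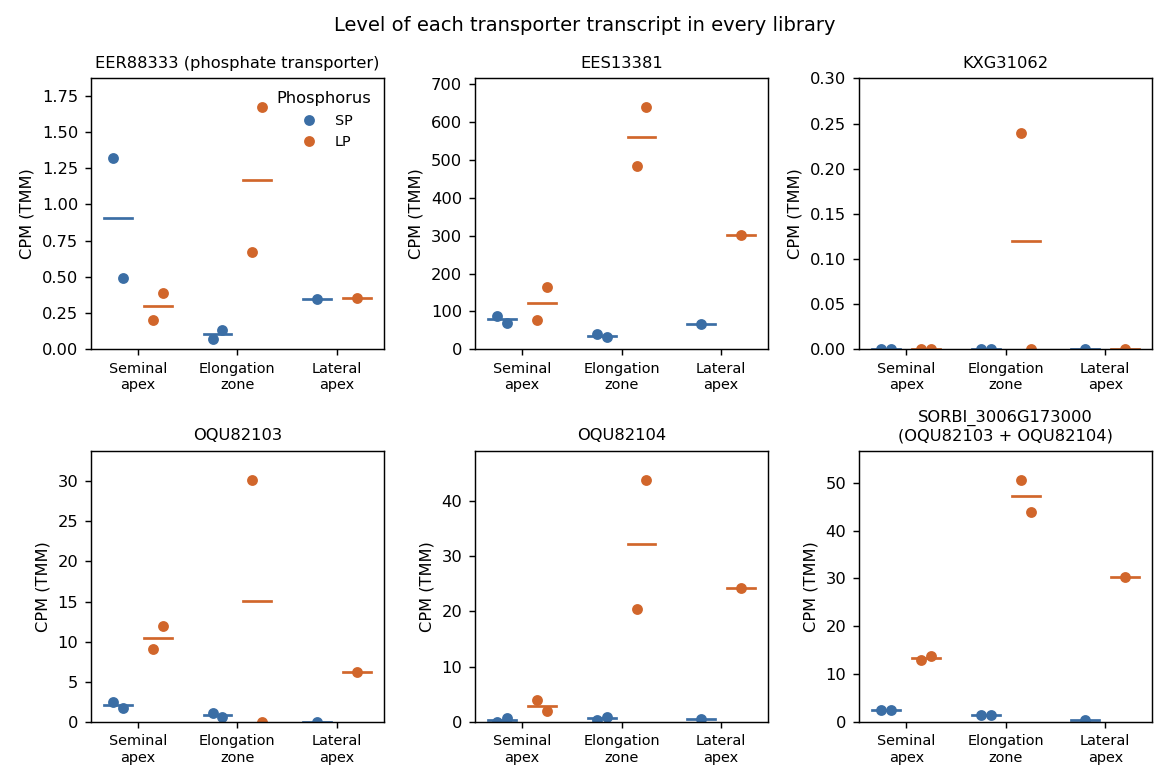
CPM of each transporter transcript, and of the sum of OQU82103 and OQU82104, in every library (y axis, linear, own scale per panel) by root region and phosphorus level; points are libraries and short lines are group means. EES13381 and the summed gene were highest in the elongation zone under LP (484.8 and 639.0 CPM, and 50.6 and 43.8 CPM), while EER88333 stayed under 2 CPM in all libraries.

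EES13381, a glycerol-3-phosphate permease by its Arabidopsis match, rose in the elongation zone under low phosphorus. Its level there was 41.0 and 31.8 CPM in the SP replicates, and 484.8 and 639.0 CPM in the LP replicates. The groups were far apart. LP libraries lay above the SP libraries of the same number, which are not known pairs, by 3.56 and 4.33 on the log2 scale. The fitted change was 3.95 ± 0.44 (log2, SE, n = 2 per level), or 15.5-fold, with an adjusted p of 0.0251 by edgeR. It was the only transporter transcript called in this comparison, 1 of 4 tested, where 0.415% of all tested transcripts were called higher under LP. DESeq2 gave an adjusted p of 3.43e-19 for it and called 2 of the 4, where it called 3.47% of all transcripts higher. It gave EER88333 no adjusted p in any single region or difference of response between regions. The call was lost (adjusted p = 0.0852 to 0.227) without either SP replicate of the elongation zone or of the seminal apex, and when only the 4 libraries of the elongation zone were fitted (0.167), while the fold change stayed between 3.74 and 4.09 in the fits without 1 library. Without elongation zone LP replicate 2, which stood apart in its lost transcripts, the change was 3.74 with an adjusted p of 0.0452.

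In the seminal apex the same transcript gave 88.8 and 70.6 CPM under SP, and 78.3 and 164.8 CPM under LP. LP replicate 1 lay between the SP replicates and LP replicate 2 above them, so the groups overlapped. The change of 0.61 ± 0.39 (log2, SE, n = 2 per level) did not pass the test (adjusted p = 0.742, edgeR). It rests on LP replicate 2, the library with the whole root label: without it the value was -0.0248. In the lateral apex EES13381 was at 65.5 CPM under SP and 301.2 CPM under LP. The ratio of these libraries was 4.59 (95% counting interval 4.25 to 4.97), and the fitted change of 2.20 ± 0.57 (log2, SE) missed the threshold with an adjusted p of 0.100 by edgeR. DESeq2 called it (adjusted p = 0.00398), as did limma on log2(TPM + 1) (0.0487).

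Averaged over the 3 regions, EES13381 rose by 2.25 ± 0.28 (log2, SE) with an adjusted p of 0.0147 by edgeR. This average joins a region with a 15.5-fold change to 1 with overlapping groups. The call was lost without either SP replicate of the seminal apex or of the elongation zone (adjusted p = 0.0531 to 0.0664). An exact permutation test of the mean log2 difference, with phosphorus labels permuted within regions (two-sided, 72 arrangements), gave p = 0.0556, where the smallest p it can give is 0.0278. With pools of plants as the unit, 2 against 2, no p below 0.333 would be possible. The LP response was 3.34 ± 0.56 (log2, SE) larger in the elongation zone than in the seminal apex and 1.75 ± 0.68 smaller in the lateral apex than in the elongation zone, and neither difference passed the adjusted threshold (adjusted p = 0.126 and 0.222, edgeR). In the first of these comparisons 0 of the 4 transporter transcripts were called larger, beside 0.00908% of all tested transcripts, 2 of 4 had an unadjusted p under 0.05, beside 9.29% of all transcripts, and DESeq2 called 1, beside 1.63%.

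The order of EES13381 over the regions changed with phosphorus. Under SP the group means ran from 79.7 ± 12.8 CPM in the seminal apex (SD, n = 2) through 65.5 CPM in the lateral apex to 36.4 ± 6.50 CPM in the elongation zone (SD, n = 2). No neighbours in this order differed by the test (adjusted p = 0.732 between seminal apex and lateral apex, and 0.248 between lateral apex and elongation zone, edgeR). In TPM the last 2 were reversed under SP, with 4.33 in the lateral apex and 5.93 ± 1.35 in the elongation zone (SD, n = 2). Under LP the elongation zone came first, with 561.9 ± 109.0 CPM (SD, n = 2), followed by the lateral apex with 301.2 CPM and the seminal apex with 121.5 ± 61.1 CPM (SD, n = 2). The elongation zone was 2.21 ± 0.41 (log2, SE) above the seminal apex under LP (adjusted p = 0.0281, edgeR), the single call among the 4 transporter transcripts where 4.36% of all tested transcripts were called higher. That call was lost in the fit with fragment length as a factor (adjusted p = 0.0608) and without any of 6 libraries (0.0536 to 0.0886: seminal apex SP replicates 1 and 2, seminal apex LP replicate 1, elongation zone SP replicates 1 and 2, elongation zone LP replicate 2). The steps from the elongation zone to the lateral apex (adjusted p = 0.409) and from there to the seminal apex (0.208) did not pass.

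Per length, EES13381 was the most abundant of the 5 transporter transcripts in each of the 10 libraries. Its level was 75.2 and 70.8 TPM in the elongation zone under LP, above 92.4% to 93.9% of the transcripts detected there, and 6.88 and 4.98 TPM under SP, above 56.2% to 59.1% of them. In the lateral apex it was 4.33 TPM under SP and 27.7 TPM under LP. The annotated EES13381 transcript is 9985 bases long, with 331 of 47110 transcripts longer (0.703%), against a median of 1804 bases. Its estimated counts were not whole numbers in 10 of 10 libraries, so that kallisto shared some of its reads with other transcripts.

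SORBI_3006G173000, the second gene with glycerol-3-phosphate permease matches, has 2 annotated transcripts, OQU82103 (1533 bases) and OQU82104 (4812 bases). Reads that fit both are divided between them by kallisto, and neither had whole-number counts in any library where it was detected (8 of 8 and 9 of 9). The division differed from library to library, so the transcripts are given first and their sum after them.

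OQU82103 was at 2.41 and 1.72 CPM under SP in the seminal apex, and at 9.05 and 11.9 CPM under LP. In the elongation zone it was at 1.101 and 0.637 CPM under SP, and at 30.2 and 0 CPM under LP. It was at 0 CPM in the lateral SP library and at 6.21 CPM in the lateral LP library, which puts the lateral LP level 24.0-fold above a floor of 3 counts in the SP library. The 95% counting interval of LP over SP, from the observed counts and not the floor, began at 19.2. Both libraries at 0 are those that stood apart in their lost transcripts. No change of OQU82103 passed the test (adjusted p = 0.823, 0.396 and 0.314 in the seminal apex, the elongation zone and the lateral apex, edgeR). The elongation zone value was decided by which LP replicate was kept: it was 4.10 ± 2.00 with both (log2, SE), 5.11 without LP replicate 2 (adjusted p = 0.0249) and -6.78 without LP replicate 1 (adjusted p = 0.0244). Without LP replicate 2 the lateral change of OQU82103 also passed (adjusted p = 0.0167), as it did without LP replicate 1 (0.0191), with fitted values (9.62 and 9.53) that are set against a library at 0 and give no size of the change. Averaged over the regions, the lateral one included, the fitted change was 5.35 ± 1.83 (log2, SE, adjusted p = 0.161, edgeR), and it passed without LP replicate 2 (5.69, 0.00539).

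OQU82104 was at 0 and 0.646 CPM under SP in the seminal apex, and at 3.97 and 1.90 CPM under LP. In the elongation zone it was at 0.373 and 0.841 CPM under SP, and at 20.5 and 43.8 CPM under LP. The lateral libraries gave 0.409 CPM under SP and 24.2 CPM under LP. Every LP library was above the SP libraries of its region. Averaged over the regions, OQU82104 rose by 4.85 ± 0.85 (log2, SE) with an adjusted p of 0.0345 by edgeR, and the exact permutation test gave p = 0.0278, the smallest it can give. With EES13381 this made 2 of 4 transporter transcripts called for the average, where 2.05% of all tested transcripts were called higher. The call of OQU82104 was lost without either LP replicate of the seminal apex or either SP replicate of the elongation zone (adjusted p = 0.0602 to 0.105). By region its changes of 3.07 ± 1.14, 5.69 ± 1.19 and 5.78 ± 1.75 (log2, SE) in the seminal apex, elongation zone and lateral apex did not pass with edgeR (adjusted p = 0.450, 0.0987 and 0.133). That of the elongation zone passed without its LP replicate 1 (6.06, adjusted p = 0.0281), and DESeq2 called those of the elongation zone (8.8e-07) and of the lateral apex (0.00222).

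**Figure D2:**
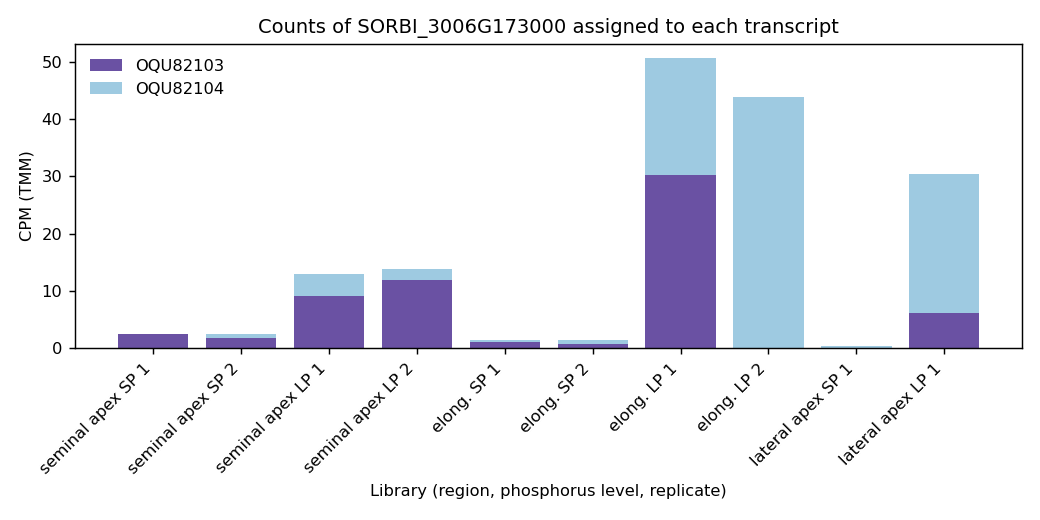
CPM of SORBI_3006G173000 in each library (bar height, linear axis from 0), divided into the counts that kallisto gave to OQU82103 and to OQU82104. The LP replicates of the elongation zone had similar totals, 50.6 and 43.8 CPM, and different divisions, with OQU82103 at 30.2 and 0 CPM.

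The share of the gene's counts given to OQU82103 was 69.5% to 100% in the 4 seminal apex libraries, and 74.7% and 43.1% in the SP replicates of the elongation zone. In the LP replicates of the elongation zone it was 59.6% (95% exact binomial interval 56.6 to 62.6) and 0% of 683 counts (0 to 0.539). It was 20.4% (16.8 to 24.6) in the lateral LP library. Shares in the 4 libraries with short fragments (0% to 43.1%) were all below those in the 6 libraries with long fragments (59.6% to 100%), the lateral SP library holding 5 counts in all. The part of fragment length in the division was not tested, and the replicates of the elongation zone fell on both sides of it under SP and under LP.

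Summed over both transcripts, SORBI_3006G173000 rose under low phosphorus in all 3 regions. In the seminal apex the sum was 2.41 and 2.37 CPM under SP, and 13.0 and 13.8 CPM under LP. In the elongation zone it was 1.474 and 1.478 CPM under SP, and 50.6 and 43.8 CPM under LP. In the lateral apex it was 0.409 CPM (5 counts) under SP and 30.4 CPM (429 counts) under LP. No SP library reached the level of any LP library, and replicates lay much closer together than for either transcript alone.

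Fitted with the counts of the transcripts summed, the gene rose by 2.48 ± 0.28 (log2, SE, n = 2 per level) in the seminal apex, 4.99 ± 0.31 (n = 2 per level) in the elongation zone and 6.11 ± 0.48 (n = 1 per level) in the lateral apex, with adjusted p of 0.0333, 0.00655 and 0.00946 by edgeR. The folds were 5.59, 31.7 and 69.3, and the count ratio of the lateral libraries had a 95% counting interval of 30.0 to 218.4. In this fit 0.0393%, 0.505% and 1.48% of the 33038 tested items were called higher under LP in the seminal apex, elongation zone and lateral apex. Libraries of the same number, which are not known pairs, differed by 2.43 and 2.54 in the seminal apex and 5.10 and 4.89 in the elongation zone (log2). Averaged over the regions the rise was 4.53 ± 0.22 (log2, SE, adjusted p = 0.00204, edgeR), where 2.05% of items were called higher, and the exact permutation test gave p = 0.0278, the smallest it can give.

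The calls of the sum differed in how much they depended on single libraries. In the seminal apex the call was lost without any of the 4 seminal apex libraries or either SP replicate of the elongation zone (adjusted p = 0.112 to 0.298), in a fit of that region alone (0.0906), with the replicate number (0.0664) or fragment length (0.0592) as a factor, with kallisto's effective length as an offset (0.170) and with limma on log2(TPM + 1) (0.351), while the fold change stayed between 2.44 and 2.52 in the fits without 1 library. In the elongation zone it was lost without SP replicate 1 or 2 (adjusted p = 0.124 and 0.130) and in a fit of that region alone (0.152), and it passed without LP replicate 2 (5.09, adjusted p = 0.0160). In the lateral apex the adjusted p rose to as much as 0.0502, past the threshold, without either SP replicate of the seminal apex or of the elongation zone, with the change still at 6.11, and limma on log2(TPM + 1) gave 3.21 (0.0986).

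The response of the summed gene was 3.63 ± 0.52 (log2, SE) larger in the lateral apex than in the seminal apex, with an adjusted p of 0.0450 by edgeR, where 0.484% of all tested items were called larger. It rests on 1 lateral library per level. All lateral libraries had short fragments and all seminal apex libraries long ones, so region and fragment length cannot be told apart in this comparison. The call was lost without any 1 of the 4 seminal apex libraries or the 2 elongation zone SP libraries (adjusted p = 0.0851 to 0.188), with DESeq2's size factors (0.0519), with the replicate number (0.0829) or fragment length (0.0782) as a factor, in a fit of these regions alone (0.0942) and with the effective length offset (0.126), and limma on log2(TPM + 1) gave 1.43 (0.593). The response was 2.504 ± 0.380 larger in the elongation zone than in the seminal apex and 1.13 ± 0.51 larger in the lateral apex than in the elongation zone (log2, SE), without passing (adjusted p = 0.106 and 0.273, edgeR), while DESeq2 called the first (0.000488).

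**Figure D3:**
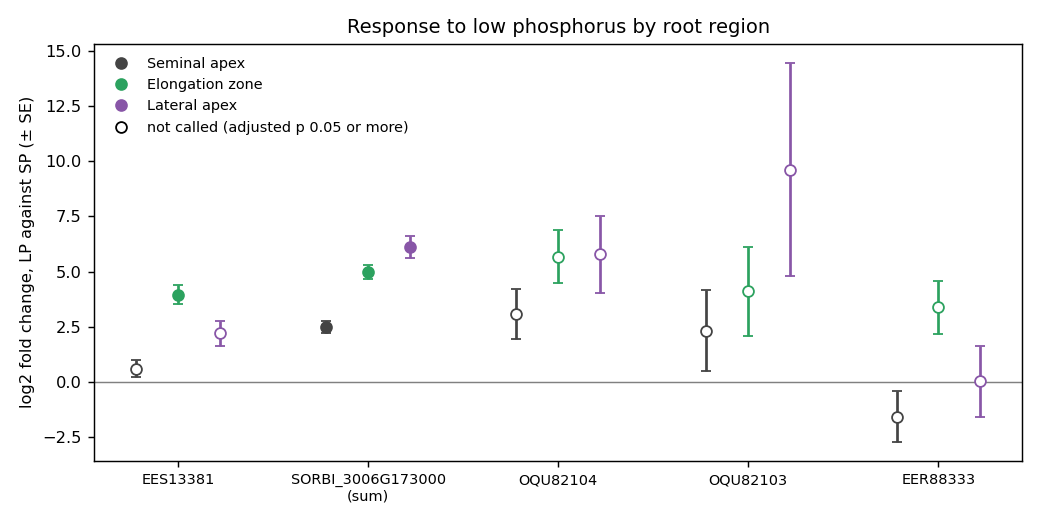
Log2 fold change of LP against SP (y axis, ± SE from edgeR) in each region for EES13381, the summed gene, its 2 transcripts and EER88333; filled points passed the adjusted threshold of 0.05. The summed gene was called in all 3 regions (2.48, 4.99 and 6.11) with smaller errors than either of its transcripts, and EES13381 was called in the elongation zone (3.95). The lateral point of OQU82103 is a fitted value against a library at 0.

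Over the regions the summed gene was ordered differently at each phosphorus level. Under SP it was highest in the seminal apex (2.39 ± 0.0274 CPM, SD, n = 2), then in the elongation zone (1.48 ± 0.0028 CPM, SD, n = 2), and lowest in the lateral apex (0.409 CPM). Both SDs are far below the counting error of libraries with 20 to 43 counts. The lateral apex lay 2.45 ± 0.42 (log2, SE) below the seminal apex and 1.76 ± 0.42 below the elongation zone (adjusted p = 0.0321 and 0.0376, edgeR), where 3.29% and 6.9% of all tested items were called lower, and the elongation zone did not differ from the seminal apex by the test (adjusted p = 0.344). Both lateral calls rest on the 5 counts of the lateral SP library and were lost with fragment length as a factor (adjusted p = 0.137 and 0.0713). Without seminal apex SP replicate 1 or 2, or elongation zone SP replicate 1 or 2, they were also lost (0.0799 to 0.150), and the second also without seminal apex LP replicate 1 or 2 (0.0506 and 0.0511), with the replicate number as a factor (0.0526), with no filter (0.0569), in a fit of these regions alone (0.124) and with DESeq2 (0.0834). The effective length offset moved them to -4.05 and -2.99, the second no longer called (0.0551), and limma on log2(TPM + 1) called neither (-1.52 and -1.07, adjusted p = 0.190 and 0.293). Under LP the elongation zone was highest (47.2 ± 4.80 CPM, SD, n = 2), followed by the lateral apex (30.4 CPM) and the seminal apex (13.4 ± 0.551 CPM, SD, n = 2). The elongation zone was 1.82 ± 0.26 (log2, SE) above the seminal apex (adjusted p = 0.0154, edgeR), where 4.37% of items were called higher. That call was lost without seminal apex SP replicate 2, LP replicate 1 or LP replicate 2 (0.0501 to 0.0769) and with the effective length offset, which lowered the value to 1.11 (0.232), and with limma on log2(TPM + 1), which gave 1.05 (0.351). The lateral apex did not differ by the test from the elongation zone (adjusted p = 0.373) or from the seminal apex (0.123, and 0.0388 with DESeq2). In TPM the lateral apex (8.81) lay below the seminal apex (9.49 ± 0.399, SD, n = 2) under LP.

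Because the transcripts differ in length, the division between them also moves the gene's TPM. The sum was 40.8 and 10.3 TPM in the LP replicates of the elongation zone, where CPM differed little. EES13381 was above the sum in every library, by 1.06 to 6.90 times in 9 libraries and by 75.8 times in the lateral SP library, where the sum was at 0.0571 TPM. In the seminal apex under LP, where the ratio was 1.06 and 1.82, the genes were closest to each other.

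EER88333, the PHT1-type phosphate transporter, was close to the detection limit everywhere. Its counts ranged from 1 to 26 per library, all whole numbers within 0.001, and its level from 0.068 to 1.01 TPM, above at most 33.0% of the transcripts detected in a library. In the elongation zone it had 1 and 3 counts under SP, which is 0.0739 CPM (95% counting interval 0.00187 to 0.412) and 0.131 CPM (0.0270 to 0.383). Under LP it had 14 and 26 counts there, which is 0.671 CPM (0.367 to 1.13) and 1.67 CPM (1.09 to 2.45). Both LP replicates were above both SP replicates, and the counting intervals of the nearest libraries overlapped.

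The fitted change of EER88333 in the elongation zone was 3.38 ± 1.22 (log2, SE, n = 2 per level), and it did not pass (adjusted p = 0.275, edgeR). In the seminal apex the transporter was at 1.32 and 0.491 CPM under SP and at 0.199 and 0.392 CPM under LP, so both LP replicates were below both SP replicates. That change of -1.56 ± 1.14 (log2, SE) did not pass either (adjusted p = 0.788, edgeR). In the lateral apex it was at 0.345 CPM (4 counts) under SP and 0.354 CPM (5 counts) under LP, a ratio of 1.03 with a 95% counting interval of 0.221 to 5.18. A change within that interval was not detectable at this depth. The elongation zone response was 4.94 ± 1.66 (log2, SE) above that of the seminal apex, with an unadjusted p of 0.0208 and an adjusted p of 0.415 by edgeR.

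KXG31062 (1464 bases), the third gene with permease matches, had 5 counts in elongation zone LP replicate 1 and 0 in the other 9 libraries. For a count of 0 the 95% counting interval ended at 0.161 to 0.368 CPM, depending on the library. The 5 counts were 0.240 CPM (95% counting interval 0.0779 to 0.560). No fold was computed for it.

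No transporter transcript was called in the seminal apex or in the lateral apex when the transcripts were tested singly (0 of 4 in each). Of all tested transcripts, 0.0363% and 1.48% were called higher there. At an unadjusted p under 0.05 there were 1 and 2 of 4, beside 9.41% and 20.5% of all transcripts, and DESeq2 called 0 and 3, beside 0.951% and 5.77%. The 3 include OQU82103, which was at 0 CPM in the lateral SP library. The 4 tested transcripts had a median log2 fold change of 1.47 for the seminal apex, 4.03 for the elongation zone and 3.99 for the lateral apex, beside medians of 0.00, 0.01 and 0.05 over all tested transcripts. With OQU82103 set at its floor-based value, the lateral median was 3.39. The members were chosen with earlier results of these data known, so these medians are no independent evidence of a response. OQU82103 and OQU82104 are transcripts of 1 gene that share reads, yet count as 2 of the 4.

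The other transcripts of phosphate starvation on the list compared here were 16, of lipid remodelling, SPX proteins, a PHO2-type conjugase, and phosphatases or pyrophosphatases. Of all tested transcripts, 0.0363%, 0.415% and 1.48% were called higher under LP in the seminal apex, the elongation zone and the lateral apex. Of these 16, all tested, 1, 7 and 7 were called higher there, and none lower. Without either SP replicate of the elongation zone no such call remained. Each of these counts also fell without any single seminal apex library, and the seminal apex count rose without either elongation zone LP replicate. The share of all transcripts called in those fits is not given here. The study picked a number of these transcripts, and of the transporters, from these same libraries, so the counts are no independent evidence of direction. Their median log2 fold changes were 0.52, 2.18 and 3.43 in the seminal apex, elongation zone and lateral apex, the last being 3.39 with the 3 transcripts at 0 in the lateral SP library set against the floor of 3 counts.

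The seminal apex call was EES14277, a match of the Arabidopsis galactolipid synthase AT2G11810 (MGD3), which rose there by 4.28 (log2) and in the elongation zone by 7.18. In the lateral apex EES14277 was called with 0 counts under SP, in the library with 340 lost transcripts, and 357 under LP. The LP level was 97.9-fold above a floor of 3 counts (6.61 on the log2 scale). The 95% counting interval of LP over SP, from the observed counts and not the floor, began at 79.2. In the elongation zone, the SPX proteins EES04719 and EER90017, of a family that binds inositol pyrophosphates as a signal of phosphate status, rose by 4.80 and 4.04. The sulfolipid synthesis transcripts EES18158 and KXG22191 rose by 4.47 and 4.02 there. EER97828 and EES18902, phosphatase or pyrophosphatase transcripts, rose by 3.396 and 2.430. The same 7 were called in the lateral apex, where their changes other than that of EES14277 were 2.81 to 3.83. EES13381 (3.95) and the sum of SORBI_3006G173000 (4.99) lay within the range of these 7 in the elongation zone. In the lateral apex the sum (6.11) lay above 6 of the 7, and EES13381 (2.20, not called by edgeR) lay below all 7.

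For the average of the regions, 8 of the 16 were called higher and 1 lower, beside 2.05% and 1.33% of all tested transcripts. That 1 was EES19930, the match of Arabidopsis PHO2, a ubiquitin conjugase that marks PHT1 and PHO1 phosphate transporters for degradation in that species. It is named here after its value was seen. It was at 83.5 and 100.2 CPM under SP and 18.1 and 15.5 CPM under LP in the seminal apex, and at 263.2 and 333.4 CPM under SP and 114.5 and 45.3 CPM under LP in the elongation zone. The lateral libraries gave 58.5 CPM under SP and 38.2 CPM under LP. Its average change was -1.66 ± 0.30 (log2, SE, adjusted p = 0.0368, edgeR). Of 6 other transporter transcripts (malate transporter matches and major facilitator proteins), 3 were tested and 0 were called by edgeR for LP against SP in any region or in the average. At an unadjusted p under 0.05 there was 1, in the lateral apex, beside 20.5% of all transcripts, and DESeq2 called 1 lower there, beside 3.75%.

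**Figure D4:**
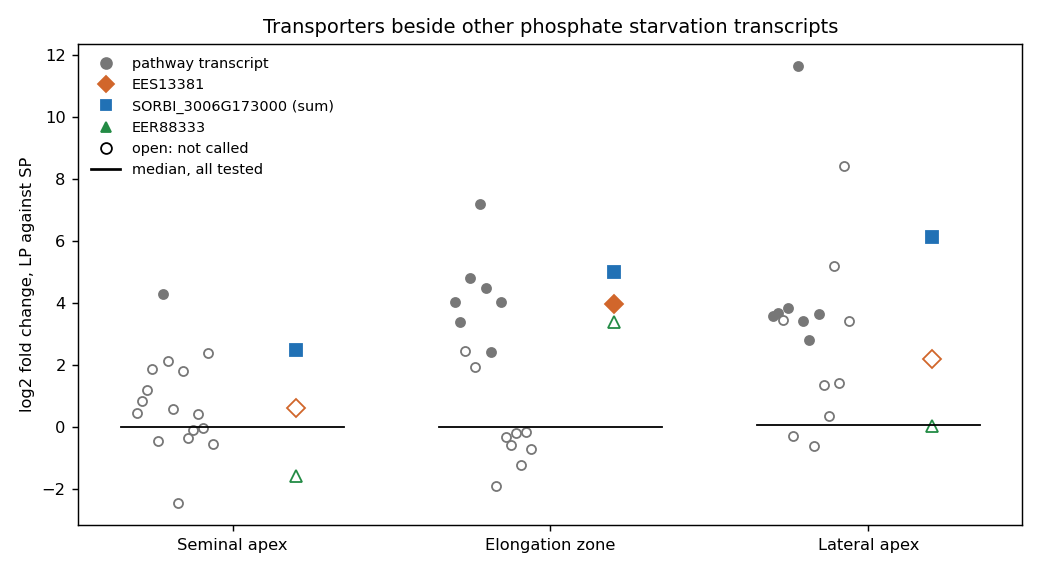
Log2 fold change of LP against SP (y axis) by region for the 16 other phosphate starvation transcripts (grey circles), EES13381, the summed gene and EER88333; filled symbols were called and the line is the median of all tested transcripts (0.00, 0.01 and 0.05). The called grey circles numbered 1, 7 and 7 by region, beside 0.0363%, 0.415% and 1.48% of all tested transcripts called higher. The summed gene was called in each region. The 3 highest grey circles of the lateral apex are fitted values against a library at 0.

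Across the 10 libraries, the annotated transcripts whose log2 CPM most resembled EES13381 were the SPX transcripts EER90017 (Pearson r = 0.950) and EES04719 (0.936) and the sulfolipid transcript KXG22191 (0.926). For OQU82104 they were EES18158 (r = 0.924), KXG22191 (0.920) and EES18902 (0.912), an inorganic pyrophosphatase. For OQU82103 they were EER90333 (r = 0.953), KXG36464 (0.905), an equilibrative nucleoside transporter, and OQU85188 (0.833), a photolyase-domain protein. For EER88333 they were OQU79825 (r = 0.748), EES05968 (0.733) and KXG26749 (0.725), with counts too low for the order to carry weight. Only 638 tested transcripts were annotated in the sources used, which are the study's tables of phosphate starvation genes. Transcripts of that response were therefore favoured among those named. Between 2 and 161 of all tested transcripts had a higher r than the ones named. These libraries share regions, phosphorus levels and fragment lengths, and r is given as a description.

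Among the transporter transcripts, EES13381 and OQU82104 resembled each other most (r = 0.831 over 10 libraries), and EES13381 and EER88333 gave r = 0.681. OQU82103 and OQU82104, from the same gene, gave r = 0.186.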

How the data were processed

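The members and lists below were chosen with earlier results of these data known. Per the methods, the authors used Trimmomatic and SAMtools on the paired reads and kallisto with the sorghum v3.4.1 genome. Tool versions were not given in the sources used here. The deposited files hold estimated counts per transcript, not normalized, and TPM values made by kallisto from the effective lengths in the same files. Estimated counts were rounded, and edgeR 4.0.16 (R 4.3.3) was fitted to 10 libraries as 6 groups with TMM, filterByExpr and the quasi-likelihood test (4 residual degrees of freedom), with Benjamini-Hochberg adjustment. The SE of a log2 fold change is its size over the square root of F. For SORBI_3006G173000, OQU82103 and OQU82104 were also summed before the same fit. Alternatives were DESeq2 1.42.0, its size factors, no filter, fewer regions or libraries, blocks for replicate number, plant pool and fragment length, an effective length offset, and limma 3.58.1 on log2(TPM + 1). Combining these with the summed counts was chosen after seeing the data. Counting intervals are exact (95%), the floor is 3 counts, and both cover counting error only. Fragment length was estimated from length minus effective length. Named were the 5 members, listed pathway transcripts called in a region, and the 3 annotated transcripts of highest r per member. Tables of the authors' own methylation comparison (differences, p-values and q-values) and samples of chromatin immunoprecipitation and bisulfite sequencing were not used here. No coordinates or sequences of these genes were at hand.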

Additional observations from a re-analysis of the deposited data

Results flagged for a closer look

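The response of the summed gene SORBI_3006G173000 to low phosphorus passed a direct test between regions in the main fit. It was 3.63 ± 0.52 (log2, SE) larger in the lateral apex than in the seminal apex (adjusted p = 0.0450, edgeR). This call was lost with the replicate number as a block (3.63, adjusted p = 0.0829). It was also lost without any single seminal apex library or either elongation zone SP library. The same held with DESeq2's size factors, with fragment length as a block, in a fit of these regions alone and with the effective length offset. Limma on log2(TPM + 1) did not call it, while DESeq2 did. The comparison set 6.11 in 1 library per level beside 2.48 in 2 libraries per level. The lateral libraries held 5 summed counts under SP and 429 under LP. Region and estimated fragment length cannot be told apart here, and the lateral SP library is also the library with 340 lost transcripts. Groups of 2 and 1 libraries are too small to look for outlying samples.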

How the results depend on the processing

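Deviations of same-numbered libraries correlated at r = 0.0014 to 0.227 over the 6 pairs of groups, highest between seminal apex and elongation zone under LP. The regions were cut from the same plants, but the labels do not say that a number marks 1 pool, and not every correlation passed 0.1, so the numbers were not taken as pairs. With such pools as a block, no call between elongation zone and seminal apex changed for EES13381 or the sum: under LP they were 2.31 (adjusted p = 0.0211) and 1.83 (0.0291), under SP -1.13 (0.116) and -0.68 (0.299), and in response 3.43 (0.126) and 2.51 (0.156). With the replicate number as a block, the rise of SORBI_3006G173000 (summed) in the seminal apex was 2.48 with an adjusted p of 0.0664, its difference of response between lateral and seminal apex was 3.63 (0.0829), its difference between lateral apex and elongation zone under SP was -1.79 (0.0526), 0 pathway transcripts were called in the seminal apex in place of 1, and the elongation zone rise of EES13381 (adjusted p = 0.0404) and the average rise of OQU82104 (0.0403) stayed called. With fragment length as a block, the seminal apex rise of the sum was 2.48 (adjusted p = 0.0592), and 0 members in place of 1 were higher in the elongation zone than in the seminal apex under LP.

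With only the libraries of the regions compared, EES13381 in the elongation zone was 3.95 (adjusted p = 0.167), the sum was 2.48 in the seminal apex (0.0906) and 4.99 in the elongation zone (0.152), 0 members and 0 pathway transcripts were called in the elongation zone and 0 pathway transcripts in the seminal apex, and 1 member was called lower in the lateral apex than in the seminal apex under SP. This fit has fewer libraries. With no filter OQU82104 passed in the elongation zone (5.67, adjusted p = 0.0490), giving 2 members, beside 0.694% of all transcripts called higher. With the effective length offset the sum in the seminal apex was 2.39 (adjusted p = 0.170). DESeq2's size factors moved EER88333 in the lateral apex to -0.0295 (adjusted p = 1).

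DESeq2 called EES13381 in the lateral apex (2.13), and OQU82104 in the elongation zone (5.73) and the lateral apex (5.74). It called OQU82103 in the lateral apex (21.60, against a library at 0) and on average (9.35, which includes that lateral value). It called 2 members in the elongation zone (beside 3.47% of all transcripts higher) and 3 in the lateral apex (5.77%). In each of the 3 differences of response it called 1 (1.63%, 3.33% and 4.23% for elongation zone against seminal apex, lateral against seminal apex and lateral apex against elongation zone). Between elongation zone and seminal apex under LP it called 2 (7.29%), and in each lateral comparison under SP it called 1 lower (8.55% against the seminal apex and 11.1% against the elongation zone). It also called 5 pathway transcripts in the seminal apex, beside 2.79% of all transcripts called in either direction. The member called in both lateral differences of response and both lateral comparisons under SP was OQU82103, set against the lateral SP library at 0. Limma on log2(TPM + 1) called EES13381 in the lateral apex (2.43) and OQU82104 in the elongation zone (2.95), and did not call the sum in the seminal apex (1.79) or the lateral apex (3.21). It gave 2 members in the elongation zone (beside 1.31% of all transcripts higher), 1 in the lateral apex (1.63%), and 2 between elongation zone and seminal apex under LP (6.80%). It gave 0 and 4 pathway transcripts in the seminal apex and the lateral apex, beside 0.3% and 2.1% of all transcripts called in either direction. Under it 3 uncalled differences changed sign: EES13381 between lateral apex and elongation zone under SP (-0.37), and the sum between lateral apex and seminal apex under LP (-0.0949) and in its response between lateral apex and elongation zone (-0.0723). Summing the isoforms gave 1 member called in the seminal apex, 2 in the elongation zone, 1 in the lateral apex, 1 for the response of lateral against seminal apex, 2 between elongation zone and seminal apex under LP, and 1 in each lateral comparison under SP. The permutation test gave 2.21 for the average of EES13381 (p = 0.0556, exact). Why these settings differ was not tested.

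Leaving out 1 library at a time gave ranges of log2 fold change. For EES13381 they were 3.74 to 4.09 in the elongation zone, 2.04 to 2.40 on average and -0.0248 to 1.05 in the seminal apex. OQU82103 ranged from -6.78 to 5.11 in the elongation zone and 9.51 to 9.68 in the lateral apex (against a library at 0). Its average, which includes that lateral value, ranged from 1.69 to 5.69. OQU82104 ranged from 5.03 to 6.37 in the elongation zone and 4.52 to 6.64 on average. The sum ranged from 2.44 to 2.52 in the seminal apex, 4.82 to 5.09 in the elongation zone and 6.11 to 6.12 in the lateral apex. Members called ranged from 0 to 3 in the elongation zone and on average, 0 to 1 in the lateral apex, 0 to 2 between elongation zone and seminal apex under LP and for their difference of response, and 0 to 1 between lateral apex and seminal apex under SP, between lateral apex and elongation zone at either level and for that difference of response. Pathway calls ranged from 0 to 2, 0 to 10 and 0 to 8 in the seminal apex, elongation zone and lateral apex.

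The limits are 4 residual degrees of freedom, 1 lateral library per level, and counts of 1 to 26 for EER88333 and 5 in all for KXG31062. Lateral results could not be computed without a lateral library. The plant pool block compares regions within pools and gives no value for LP against SP.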
